A study of Mus musculus with 6 samples.

Results

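Expression of 46 genes of Nodal, BMP and TGF-beta signalling was examined in undifferentiated mouse embryonic stem cells (mESCs) with and without *Alkbh1*, the gene of an AlkB-family dioxygenase. The genes were chosen by name, as ligands, receptors, Smad proteins, inhibitors and target genes of the pathway, and not by their measured values. Earlier results of these data were known when the choice was made. A named probe set was found for 44 of the 46 among 15364 named genes, and *Bmp2* and *Bmp5* had none. The WT and *Alkbh1*-/- mESCs were both of the C57BL/6 strain, were taken at passage 8 and day 0, received no treatment, and were kept undifferentiated with LIF, per the methods on a layer of irradiated mouse embryonic fibroblasts. Each genotype was measured on 3 Affymetrix whole-genome arrays. The labels carry a single name stem for each genotype and do not say whether its arrays came from separate cultures, so genotype and cell line cannot be told apart.

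Ligands of this family bind pairs of type I and type II serine/threonine kinase receptors, which phosphorylate receptor-regulated Smads that enter the nucleus with Smad4. Nodal, activin and TGF-beta act through Smad2 and Smad3, whereas BMPs act through Smad1, Smad5 and Smad9 and induce the Id genes. In mESCs, BMP4 acting together with LIF is known to sustain self-renewal through Id proteins, and Nodal, its co-receptor Cripto (*Tdgf1*) and its Lefty antagonists are expressed in undifferentiated cells.

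The values come as 2 tables without any single-array value. The first covers 33142 probe sets, and its mean log2 value over all arrays was used here. It also holds columns of the authors' own comparison of the genotypes (a difference, test statistics and p-values), which were set aside by choice. The second gives the authors' geometric mean of the linear intensity in WT and in *Alkbh1*-/- mESCs, only for probe sets that passed an unstated filter and a nominal p of 0.05 in the class comparison. With those columns set aside, differences are given here only for listed probe sets, as ratios of group means without an error or a test. For a gene without group means, no difference between genotypes is reported here, and its absence from the list does not show that the genotypes were alike. The brightest probe set, by its mean over all arrays, stood for each gene, and every ratio below is *Alkbh1*-/- over WT for the same probe set, since intensities of different probe sets cannot be compared as transcript levels.

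The targeted gene, *Alkbh1*, had an authors' mean of 761 in WT and 25.7 in *Alkbh1*-/- mESCs at one probe set, 29.6-fold lower, and 120 against 34.6 at the other, 3.47-fold lower. All 10 ES cell markers had mean log2 values between 10.05 and 14.49, and 4 of them had group means at the brightest probe set. Among these, *Nanog*, *Zfp42* and *Esrrb* were higher and *Utf1* lower in *Alkbh1*-/- mESCs. *Fgf4* had group means only at dimmer probe sets, and their direction is not reported here. The 4 Y-linked genes examined (*Eif2s3y*, *Ddx3y*, *Kdm5d* and *Uty*) were all between 6.47-fold and 50.3-fold lower in *Alkbh1*-/- mESCs, so that sex-chromosome content cannot be told apart from genotype either. None of the 44 pathway genes lies on a sex chromosome. Of 22 fibroblast markers, 9 had group means, all 9 were lower in *Alkbh1*-/- mESCs by 1.43-fold to 2.08-fold, and their means added up to 8041 in WT against 4311 in *Alkbh1*-/- mESCs, a sum made up mostly of the bright probe sets of *Lox*, *Col3a1* and *Col5a2* (2246, 2002 and 1868 in WT). The other 13, *Acta2*, *Postn* and *S100a4* among them, had no group means at the probe set that stood for them. Of these, *Col1a2*, *Col5a1* and *Prrx1* had group means at a dimmer probe set, whose direction is not reported here. Of the 22, 40.9% thus had group means, against 14.8% of all named genes. The share was similar for the ES cell markers, at 40%, and was 33.3% for the markers of extraembryonic endoderm described below. A share of 36.4% was over 1.5-fold lower, against 4.96% of all named genes. Of 9 markers of extraembryonic endoderm, 1 was at or above the median of the table, *Gata4* (4.47) and *Gata6* (4.45) were dim, *Sox7* was higher and *Dab2* and *Lamb1* were lower. In such bulk RNA, fewer cells of a type and less RNA per cell cannot be told apart.

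At the brightest probe set, group means were deposited for 10 of the 44 pathway genes, and these genes were split evenly in direction. *Ski* had group means only at a dimmer probe set, so that 11 genes had them at any probe set. *Id4*, *Lefty2*, *Smad6*, *Tgfbr3* and *Id2* were between 1.60-fold and 4.15-fold higher in *Alkbh1*-/- than in WT mESCs. *Skil*, *Inhba*, *Tgfb1*, *Id1* and *Acvr2b* were between 1.40-fold and 2.41-fold lower. Of the 44 genes, 5 (11.4%) were over 1.5-fold higher, against 4.67% of all 15364 named genes, and 4 (9.09%) were over 1.5-fold lower, against 4.96%. A share of 22.7% had group means, against 14.8% of all named genes. The counts involve few genes, and whether they exceed the background was not tested.

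**Figure D1:**
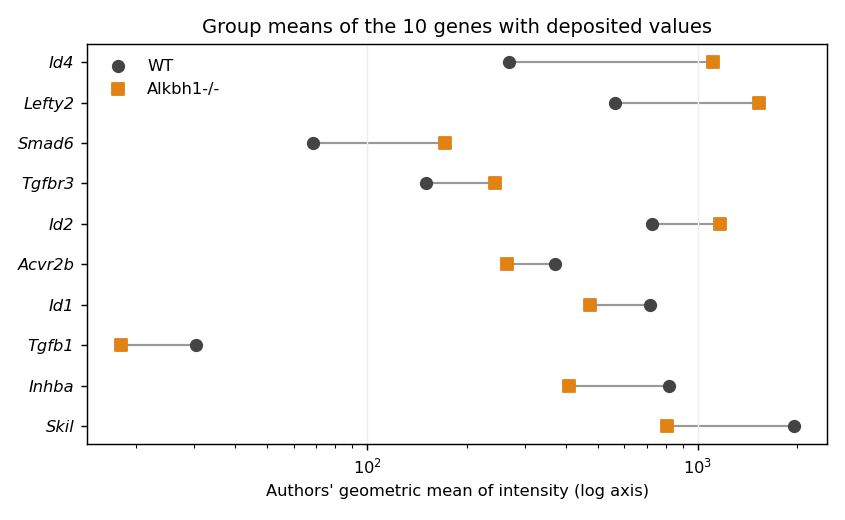
The authors' geometric mean of intensity (horizontal log axis) in WT (circles) and *Alkbh1*-/- mESCs (squares), ordered by the ratio. Drawn are the 10 pathway genes with deposited group means at the brightest probe set. Lines join the means of one gene and there are no error bars, because the tables give no single-array values. *Id4* at the top goes from 268 to 1113, and *Skil* at the bottom from 1951 to 809.

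The Id genes, which encode helix-loop-helix proteins that lack a DNA-binding region and hold differentiation factors inactive, are the best known targets of BMP signalling. Group means existed for 3 of the 4 (75%, against 14.8% of all named genes), and these did not share a direction. *Id4* was higher in *Alkbh1*-/- mESCs, with an authors' mean of 268 in WT and 1113 in *Alkbh1*-/- mESCs (log2 ratio 2.05). The other 3 probe sets of *Id4* were also higher, by 3.39-fold, 3.18-fold and 2.90-fold, so that all 4 gave the same direction. *Id2* went from 726 in WT to 1165 in *Alkbh1*-/- mESCs (1.60-fold, log2 ratio 0.68). A further *Id2* probe set went from 540 to 1012 (1.87-fold), and the third had no group means. *Id1* was lower, with 718 in WT and 474 in *Alkbh1*-/- mESCs, a 1.52-fold difference that only just passed the 1.5-fold threshold. *Id3* had a mean log2 value of 9.69 over all arrays and no group means.

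The promoters of *Id2* and *Id4* are shown because both genes were higher in *Alkbh1*-/- mESCs, with that of *Id3*, which had no group means, for comparison. Each sequence is the 250 bases before the gene's start in RefSeq (GRCm38.p6), written 5′ to 3′ on the strand of the gene. Capitals mark the GC-rich motif GGCGCC, the core of a known BMP-responsive element bound by Smads, which reads the same on both strands. They also mark the Smad-binding motif GTCTG, searched on both strands. The marked motifs do not overlap.
Id2 (chr12:25096093-25096342, minus strand): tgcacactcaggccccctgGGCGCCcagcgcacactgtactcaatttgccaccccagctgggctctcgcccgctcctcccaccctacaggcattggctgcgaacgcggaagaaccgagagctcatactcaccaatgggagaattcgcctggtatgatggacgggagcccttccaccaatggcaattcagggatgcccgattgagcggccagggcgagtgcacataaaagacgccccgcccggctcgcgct
Id4 (chr13:48260866-48261115, plus strand): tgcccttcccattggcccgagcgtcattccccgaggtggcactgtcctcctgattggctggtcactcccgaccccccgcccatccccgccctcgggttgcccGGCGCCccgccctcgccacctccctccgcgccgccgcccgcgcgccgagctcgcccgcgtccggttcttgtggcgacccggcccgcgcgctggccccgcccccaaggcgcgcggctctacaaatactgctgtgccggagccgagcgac
Id3 (chr4:136143572-136143821, plus strand): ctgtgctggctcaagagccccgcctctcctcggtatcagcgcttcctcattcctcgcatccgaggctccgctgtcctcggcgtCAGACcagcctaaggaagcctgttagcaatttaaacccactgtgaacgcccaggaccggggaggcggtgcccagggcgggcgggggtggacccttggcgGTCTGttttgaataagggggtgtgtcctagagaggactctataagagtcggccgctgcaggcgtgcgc
The *Id2* and *Id4* stretches each held 1 GC-rich motif and no Smad-binding motif GTCTG on either strand. That of *Id3* held no GC-rich motif and 2 Smad-binding motifs, one on each strand. The spaced form, GGCGCC with GTCT at a fixed short distance on either strand, was also searched. It was in none of these stretches and in 0.07% of all promoters, so the GC-rich motif stood there without GTCT at that distance. The shorter GTCT did occur elsewhere in the *Id2* stretch, on the other strand (agac). The reference table held 37 promoters of 31 pathway genes. The GC-rich motif was found in 10 of the 37 (27.0%) and in 9.59% of all 32851 promoters of the same length, and the Smad-binding motif in 17 (45.9%) and 42.2%. The promoters were not matched for GC content, on which the frequency of GGCGCC depends. Some genes also had more than 1 promoter, and the difference in shares was not tested. Of the 6 genes with both a promoter in that table and group means at the brightest probe set, 2 (33.3%) held the GC-rich motif. The share was 10 of all 31 pathway genes with a promoter (32.3%). The 2 were *Id2* and *Id4*, both higher, while *Smad6*, also higher, and *Inhba*, *Tgfb1* and *Acvr2b*, all lower, did not hold it. *Ski*, lower at a dimmer probe set only, held it too. Whether the motif went with direction was not tested. *Id1*, *Lefty2*, *Skil* and *Tgfbr3* were not matched in the promoter table. A match describes the letters of this window and is not evidence that a factor was bound there.

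Among the intracellular regulators, *Smad6* and *Skil* differed in opposite directions. Smad6 is an inhibitory Smad that preferentially blocks BMP receptors and Smad1, and is itself induced by BMP signalling. Its authors' mean was 68.9 in WT and 172 in *Alkbh1*-/- mESCs, 2.49-fold higher (log2 ratio 1.32) at its only probe set. *Skil* encodes SnoN, a co-repressor that binds Smad2, Smad3 and Smad4. Its mean was 1951 in WT and 809 in *Alkbh1*-/- mESCs, 2.41-fold lower (log2 ratio -1.27). A dimmer *Skil* probe set was likewise 2.15-fold lower, at 73.4 against 34.1. *Ski*, the related co-repressor, had no group means at its brightest probe set, whereas a dimmer one went from 387 to 280, 1.38-fold lower. *Smad7*, the general inhibitory Smad, *Pmepa1*, a membrane protein that sequesters receptor-regulated Smads, and *Smurf1* and *Smurf2*, ubiquitin ligases that degrade Smads and receptors, had no group means, with mean log2 values of 9.45, 8.19, 7.35 and 8.96. None of the 6 signalling Smads had group means, which only 14.8% of all named genes had. Their mean log2 values over all arrays were 8.60 for *Smad1*, 8.95 for *Smad2*, 7.57 for *Smad3*, 10.52 for *Smad4*, 7.14 for *Smad5* and 4.67 for *Smad9*.

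**Figure D2:**
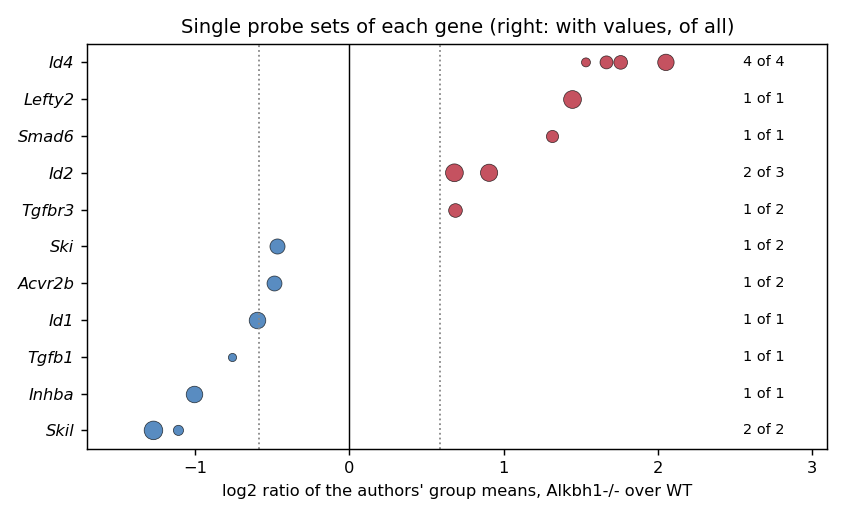
The log2 ratio of the authors' group means (*Alkbh1*-/- over WT) for each probe set with deposited means, by gene. Larger points have a higher mean log2 value over all arrays, dotted lines mark 1.5-fold, and the figures at the right count the probe sets with group means among all of that gene. All 4 probe sets of *Id4*, both of *Skil* and both listed ones of *Id2* lie on the same side of 0 within their gene.

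Among the secreted antagonists, *Lefty2* was higher in *Alkbh1*-/- mESCs. Lefty proteins block Nodal and its co-receptor and are themselves induced by Nodal signalling. The authors' mean of *Lefty2* was 561 in WT and 1528 in *Alkbh1*-/- mESCs, a 2.72-fold difference (log2 ratio 1.45) at its only probe set. *Lefty1*, its close paralogue, had a mean log2 value of 10.34 and no group means. *Fst*, which sequesters activin, *Grem1*, a BMP antagonist, and *Ltbp1*, which stores latent TGF-beta in the matrix, had no group means either.

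Both ligands with group means were lower in *Alkbh1*-/- mESCs. *Inhba* encodes the subunit of activin A and had an authors' mean of 819 in WT and 407 in *Alkbh1*-/- mESCs, a 2.01-fold difference (log2 ratio -1.01). *Tgfb1* went from 30.5 in WT to 18.0 in *Alkbh1*-/- mESCs, 1.69-fold lower (log2 ratio -0.76), and was among the dim probe sets, with a mean log2 value of 4.55 where the table spanned 3.22 to 14.67. Beside these lower genes stand the fibroblast markers, all 9 of which were lower where group means existed at the brightest probe set. The part of fibroblast RNA in the lower values of *Inhba*, *Tgfb1*, *Id1*, *Acvr2b* and *Skil* was not tested. The other 8 named ligands had no group means, so that 20% of the ligands had them, against 14.8% of all named genes. *Nodal* and *Gdf3*, a Nodal-related ligand, had mean log2 values of 10.26 and 10.29, *Inhbb*, the subunit of activin B, of 7.99, and *Bmp4* of 8.37. *Tgfb2* (6.22), *Bmp8b* (5.86), *Bmp7* (5.49) and *Tgfb3* (5.35) were all below the median of the table, which was 6.31.

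Among the 12 receptors and co-receptors, 2 had group means (16.7%, against 14.8% of all named genes). *Tgfbr3* encodes betaglycan, a co-receptor that presents TGF-beta and inhibin, and went from 151 in WT to 243 in *Alkbh1*-/- mESCs, 1.61-fold higher (log2 ratio 0.69). Its dimmer probe set had no group means. *Acvr2b*, a type II receptor for activin and Nodal, went from 371 to 264, 1.40-fold lower (log2 ratio -0.49), and its other probe set had none. The type I receptors *Acvr1* (7.23), *Acvr1b* (8.44), *Bmpr1a* (9.56), *Bmpr1b* (4.28) and *Tgfbr1* (9.11), and the type II receptors *Acvr2a* (7.69), *Bmpr2* (8.97) and *Tgfbr2* (6.98), had no group means, their mean log2 values being given in parentheses. The same held for the Nodal co-receptor *Tdgf1* at 13.16 and the decoy receptor *Bambi* at 7.98.

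By branch, the Nodal and activin genes comprised 11 with a probe set, of which 2 had group means, *Lefty2* higher and *Inhba* lower. The BMP branch comprised 16, of which 4 had group means, with *Smad6*, *Id2* and *Id4* higher and *Id1* lower. Of the 8 genes particular to TGF-beta, *Tgfbr3* was higher and *Tgfb1* lower, and of the 9 genes that branches share, *Skil* and *Acvr2b* were lower. The share over 1.5-fold higher was thus 9.09% in the Nodal branch and 18.8% in the BMP branch, against 4.67% of all named genes. That over 1.5-fold lower was 9.09% and 6.25%, against 4.96%. The branches differed in brightness, with a median mean log2 value of 9.17 in the Nodal and 8.23 in the BMP branch. No background was matched to each branch. A difference between the branches was not tested, and the counts behind these shares are 1 to 3 genes. The listing itself moved with brightness. Among all named genes with a mean log2 value from 6 to 8, 6.52% were over 1.5-fold higher and 8.94% lower, against 2 and 0 of the 12 pathway genes in that range. From 8 to 10, the values were 5.07% and 4.84% of all genes, against 3 and 2 of 20 pathway genes. Below 6, they were 3.35% and 3.34%, against 0 and 1 of 6 pathway genes, and at 10 and above 3.89% and 2.25%, against 0 and 1 of 6.

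A wider list of 53 further genes of the pathway was examined in the same way, and 46 had a named probe set. At the brightest probe set, group means existed for 8 of them (17.4%, against 14.8% of all named genes). Of these, 3 were higher and 5 lower in *Alkbh1*-/- mESCs. *Eng*, *Amhr2*, *Ltbp3*, *Nedd4l* and *Ppm1a* had group means only at a dimmer probe set, and their direction is not reported here. *Gdf15*, a distant family member induced by cell stress, went from 74.6 to 138 (1.84-fold). *Gsc*, a Nodal target of the organizer, went from 9.91 to 17.3 (1.74-fold) near the lower end of the table. *Dusp9*, an X-linked phosphatase of ERK known as a BMP target in mESCs, went from 698 to 1133 (1.62-fold). Since *Dusp9* lies on the X chromosome, sex-chromosome content cannot be told apart from genotype in its ratio. Lower values were found for *Sox4*, a transcription factor induced by TGF-beta (965 to 451, 2.14-fold), *Ltbp2*, a matrix protein related to *Ltbp1* (264 to 137, 1.92-fold), and *Bmper*, a secreted BMP modulator (45.1 to 27.8, 1.62-fold). *Fstl1*, a follistatin-related secreted protein, was 1.51-fold lower and *Tgif2*, a Smad co-repressor, 1.41-fold lower. The part of fibroblast RNA in the lower values of these 5 genes was not tested either. The shares over 1.5-fold were 6.52% higher and 8.70% lower, or 3 and 4 genes, against 4.67% and 4.96% of all named genes.

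**Figure D3:**
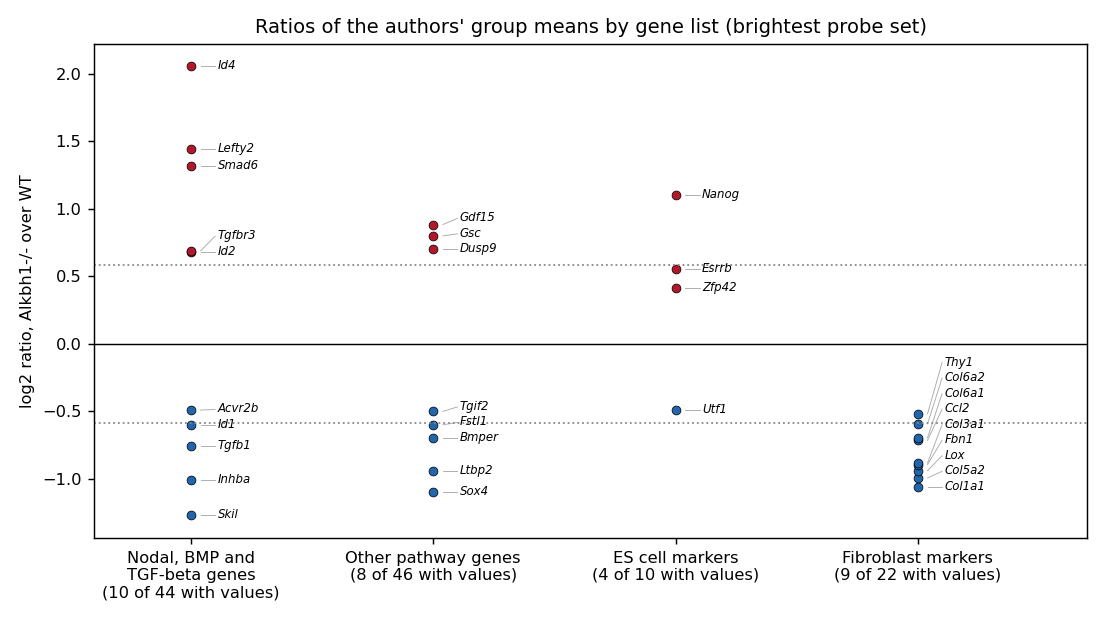
The log2 ratio of the authors' group means (*Alkbh1*-/- over WT, vertical axis) at the brightest probe set for the Nodal, BMP and TGF-beta genes, other genes of the pathway, ES cell markers and fibroblast markers, with one point per gene and dotted lines at 1.5-fold. Only genes with deposited group means are drawn, so the middle of the axis is thinly filled by construction. The 10 pathway genes lie on both sides of 0, whereas all 9 fibroblast markers lie below it.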

How the data were processed

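Total RNA of 3 WT and 3 *Alkbh1*-/- mESC samples was hybridised to Affymetrix mouse arrays, and the authors normalized the arrays together by RMA. The deposited log2 values are means over all arrays for 33142 probe sets. The deposited intensities are geometric means per genotype, for 4326 listed entries of a class comparison in which 7320 probe sets passed an unstated filter. The authors' difference, test statistic and p-value columns, which cover all probe sets of the first table, were set aside by choice. In the class comparison, identifiers stand beside the values of other probe sets. Its entries were therefore joined by value, where the mean of the log2 group means matched the mean of exactly 1 probe set within 3e-07, which placed 4248 entries, whereas 10 had several candidates and 68 none. Only 8 joined entries stood beside their own identifier, and all 4248 joined identifiers were in the list. The join was tested on simulated data. One class name differs from the WT arrays' name and was read as WT from the accompanying description.

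Probe sets were named through gene identifier, accession or symbol from RefSeq, 28216 of them (85.1%). The genes named are all those on the list, at the probe set with the highest mean. Members and gene lists were chosen with earlier results of these data known. Calls are ratios over 1.5-fold, and no test, standard error or replicate spread could be computed from the values used. Alternatives were the choice of probe set, the fold threshold, a filter on dim probe sets, the join tolerance and centring. The number of arrays limits the precision. Python 3.11.15, pandas 2.3.3 and NumPy 2.4.6 were used.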

Additional observations from a re-analysis of the deposited data

How the results depend on the processing

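No paired analysis was possible because the tables hold no values of single arrays, and leaving out each array was not run for the same reason. With a fold threshold of 2 in place of 1.5, 3 pathway genes were higher and 2 lower. Relative to the median log2 ratio of all joined probe sets, 0.42, 3 were higher and 5 lower: *Id2* (0.26) and *Tgfbr3* (0.27) no longer passed 1.5-fold and *Acvr2b* (-0.91) did. That median describes a selected list, of which 2187 probe sets were higher and 2061 lower, and is not a centre of all genes. At the brightest probe set of each gene it was -0.44. The count of higher genes was 5 with the probe set of largest ratio, without a fold threshold, with dim probe sets left out and with a join tolerance 10 times wider, and that of lower genes was 4, 5, 3 and 3. With dim probe sets left out, *Tgfb1* had no value. With the wider tolerance, 113 entries had several candidates and *Id1*, the only lower Id gene, had no value. All 38 gene values recomputed under these settings kept their direction, which was largely fixed by the settings. For a gene with a value, the dim filter and the wider tolerance could only keep or drop it. The shift of 0.42 was smaller than the least ratio of the higher genes, 0.68 for *Id2*. Genes without group means include any that did not pass the unstated filter or the nominal p.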
